A study of Mus musculus with 316 samples.

Results

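Among 95 engrafted bone marrow-derived haematopoietic stem cells (HSC) profiled one by one, transcripts of H2-Aa, the alpha chain of the MHC class II molecule I-A, were present in some cells and listed at 0 in others. The H2-Aa-positive cells were compared with the H2-Aa-negative cells across all other genes. Cells labelled Eng_BM-HSC were kept when at least 1000 mouse genes reached a TPM of 1, TPM being a measure of transcript abundance per transcript length. A kept cell was positive at an H2-Aa TPM of 1 or more and negative below it. The rule kept 76 of the 95 cells, of 316 cells in the series, and gave 41 positive and 35 negative cells. The groups were chosen by the H2-Aa values themselves, so these are a description.

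Both groups came from the same labelled population, mouse cells taken after engraftment, and were told apart only by the H2-Aa value. The series profiled polyA RNA of single cells and also holds 94 fetal liver HSC (FL_HSC), 49 engrafted cells derived from embryonic stem cells (Eng_ES-HSC) and 78 embryonic stem cells (ESC). Its title names Notch activation and the lymphoid potential of ESC-derived HSC. Strain, age, treatment, sort gate and number of animals were not stated in the labels, and all 95 Eng_BM-HSC cells carry 1 library identifier in the labels. The cells therefore count as 1 sample: differences have no replicate check, no p-value or standard error was computed, and intervals on shares of cells cover counting error only.

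MHC class II molecules carry peptides from endocytosed proteins to CD4 T cells. The I-A molecule is a pair of H2-Aa and H2-Ab1, the I-E molecule has H2-Eb1 as its beta chain, and the invariant chain Cd74 escorts both through the endoplasmic reticulum to the endosome, where H2-DM loads the peptide and H2-O restrains H2-DM. The genes share an upstream module, the X and Y boxes, bound by RFX, CREB and NF-Y proteins, on which the coactivator CIITA assembles. Professional antigen-presenting cells hold the highest class II levels, and interferon gamma can induce the genes in other cells, blood stem cells among them.

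H2-Aa lies on the minus strand of chr17:34282744-34287823, H2-Ab1 at chr17:34257689-34269419 and H2-Eb1 at chr17:34305867-34316674 (GENCODE M21, GRCm38). The upstream sequences of the class II genes in RefSeq's GRCm38.p6 table, 250 bases before to 50 after each gene start, were searched on both strands for GCAAC, a core of the X box, followed by GATTGG, the CCAAT element of the Y box read on the other strand, starting 25 to 40 bases later. The letters were chosen with these sequences in view. They are shown because the pair is what H2-Aa has in common with other genes of its locus, whose transcripts are compared in the results. The 2 motifs are in capitals, and each sequence reads toward the gene start.
H2-Aa: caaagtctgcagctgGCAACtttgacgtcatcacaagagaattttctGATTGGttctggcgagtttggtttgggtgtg
H2-Eb1: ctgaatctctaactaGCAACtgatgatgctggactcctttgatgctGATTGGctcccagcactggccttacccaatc
H2-Eb2: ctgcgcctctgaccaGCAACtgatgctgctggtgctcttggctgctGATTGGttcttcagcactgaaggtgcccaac
H2-Oa: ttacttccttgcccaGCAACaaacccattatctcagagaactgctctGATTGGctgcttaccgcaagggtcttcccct
H2-Ob: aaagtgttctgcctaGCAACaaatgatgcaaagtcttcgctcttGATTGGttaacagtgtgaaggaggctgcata

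The H2-Aa stretch is chr17:34287842-34287919 on the minus strand, with GATTGG 49 bases before the gene start. The stretches of H2-Eb1 (chr17:34305761-34305837), H2-Eb2 (chr17:34325528-34325604), H2-Oa (chr17:34092288-34092365) and H2-Ob (chr17:34238803-34238877) are on the plus strand. Of 8 class II genes with an entry, 5 held the pair, whose motifs start between 29 and 32 bases apart in them. Among all 32851 entries, 0.280% held it, while GCAAC alone was in 35.2% and GATTGG alone in 16.1%. H2-DMa, H2-DMb1 and H2-DMb2 had entries without the pair, which says only that these letters are not in the window.

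H2-Aa spanned a wide range in the positive cells, from 1.72 TPM through a median of 33.8 TPM to 4307 TPM, against 34 negative cells listed at 0 and 1 at 5.3e-13 TPM, which is 0 for any practical use. The 3 cells just inside the threshold had 1.72, 2.44 and 3.18 TPM, and no negative cell came near it. Within the positive group, 17 cells were below 10 TPM, 5 at 10 to 100 TPM, 11 at 100 to 1000 TPM and 8 above. No cell lay between 34.4 and 131 TPM, and this gap, seen in the data, was later used to divide the positive cells into 22 low and 19 high ones. Elsewhere in the series, among cells with the same gene minimum, H2-Aa reached 1 TPM in 0 of 87 FL_HSC, which allows a share of up to 3.45%, and in 1 Eng_ES-HSC cell.

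The median number of genes detected was similar in both groups, but its spread was wider in negative cells. The positive cells had from 1008 to 3289 genes with a median of 2568, and the negative cells from 1009 to 3602 with a median of 2597. The quartiles were 2207 and 2756 genes in positive cells and 1836.5 and 2951 in negative cells, with standard deviations of 562 and 817. The lower quartile of the share of ribosomal protein transcripts was 10.5% of TPM in positive and 4.54% in negative cells. The fewest genes in a kept cell were 1008, and the most in a cell left out were 988. The median share of mitochondrial transcripts was 13.8% of TPM in positive cells, with a highest value of 84.1%, and 12.4% in negative cells, with a highest value of 95.3%. The most alike pair of kept cells had a Pearson r of 0.536 between log2 profiles, so no cell appeared to be deposited more than once.

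**Figure D1:**
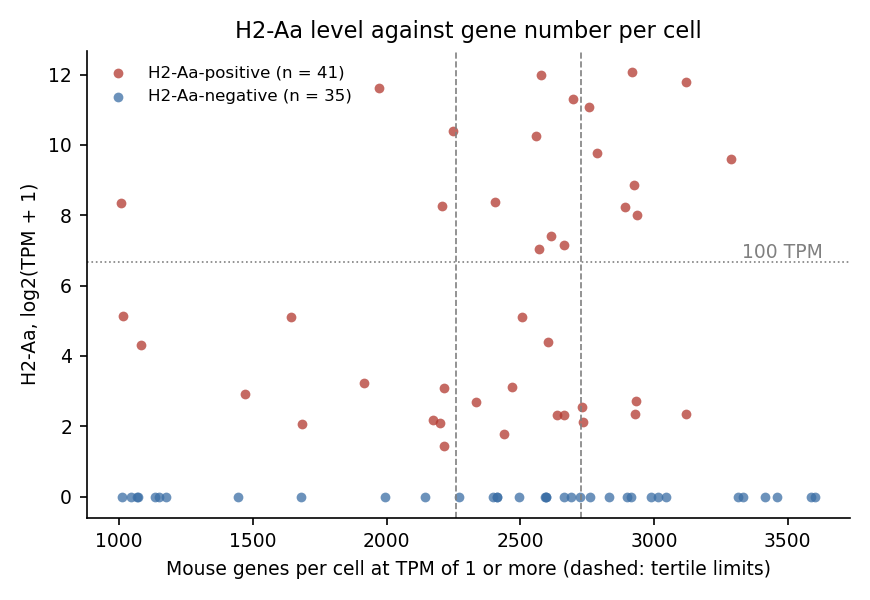
H2-Aa as log2(TPM + 1) against the number of mouse genes per cell at a TPM of 1 or more, 1 point per kept Eng_BM-HSC cell. Positive cells (red) and negative cells (blue) overlap over most of the range of gene number, from 1008 to 3602. Dashed lines divide the cells into tertiles of gene number, and the dotted line at 100 TPM falls in the gap between 34.4 and 131 TPM.

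The cells carried HSC transcripts in both groups. Of the 35 HSC identity genes listed, a positive cell had between 6 and 22 at a TPM of 1 or more, with a median of 16, and a negative cell between 9 and 23, with a median of 14. Hlf, a transcription factor of HSC, was detected in 27 of 41 positive and 24 of 35 negative cells, with medians of 12.2 and 9.48 TPM. Kit, the stem cell factor receptor, was detected in 25 positive and 24 negative cells. Fgd5, a marker of HSC in mouse, was listed at 0 in every kept cell.

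The groups were compared gene by gene over the 9602 genes whose mean TPM was 1 or more. Each difference is positive minus negative in mean log2(TPM + 1), fitted together with log2 of the cell's gene number and called a difference at equal gene number. At 1 log2 unit or more, 1.65% of the genes (158) were higher and 3.36% (323) were lower in H2-Aa-positive cells. These shares are the background for the counts that follow, and they describe these 76 cells, since cells are not replicates. The median over all genes was -0.03, and 52.9% of genes were below 0. Without the adjustment for gene number, 2.45% of genes were higher and 2.67% lower.

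Of the class II genes, the invariant chain stood highest, and the partner chains of H2-Aa differed far less. Over the 8 tested members of the list of class II chains and chaperone, H2-Aa left out, 1 was higher by 1 or more (Cd74) and 1 was lower (H2-Ob), with a median difference of 0.17, and the same 2 genes were counted without the adjustment. Class II transcripts other than H2-Aa were found in both groups. The lists of class II regulators and of peptide processing genes had no member higher by 1 or more.

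Cd74 ranged from 0 through a median of 2.82 to 1619 TPM in positive cells, against 0 through a median of 0 to 526 TPM in negative cells. It reached 1 TPM in 23 of 41 positive cells and in 14 of 35 negative cells, and 10 TPM in 18 positive and 5 negative cells. The ranges overlap, and the upper quartile was 407 TPM in positive cells and 3.07 TPM in negative cells. At equal gene number Cd74 was higher by 2.44 log2 units in positive cells, and within the tertiles of gene number by 1.91, 2.18 and 3.76.

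H2-Ab1, the beta chain that pairs with H2-Aa, reached 1 TPM in 15 of 41 positive and 11 of 35 negative cells. Its highest level was 3772 TPM in a positive cell and 1304 TPM in a negative cell, and the median was 0 in both groups. The difference at equal gene number was 0.78, below the 1 log2 unit used for counting. Most H2-Aa-positive cells thus had H2-Ab1 below 1 TPM, and some H2-Aa-negative cells had it above.

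H2-Eb1, the I-E beta chain, was detected in 15 positive and 14 negative cells, with a difference of -0.61. A single negative cell with 1174 genes held 93976 TPM of it, with H2-Ab1 and Cd74 listed at 0, while the highest positive cell held 2124 TPM. Without that cell, a choice made after seeing the data, the difference was -0.23. H2-Eb2, a second I-E beta gene, was present in 2 positive cells and 1 negative cell and missed the filter on low values.

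The peptide editors were spread over both groups. H2-DMa was detected in 25 positive and 20 negative cells with a difference of -0.16, and H2-DMb2 in 27 positive and 15 negative cells with a difference of 0.82. H2-DMb1, detected in 6 positive and 7 negative cells, and H2-DMb2 are near-identical copies between which reads may be divided uncertainly. H2-Oa, the H2-O alpha chain, differed by 0.49, with 13 positive and 11 negative cells. H2-Ob, the H2-O beta chain, was lower by 1.26 log2 units in positive cells, with a highest level of 64.4 TPM in positive cells against 2182 TPM in negative cells. It was detected in few cells of either group, 6 positive and 10 negative.

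**Figure D2:**
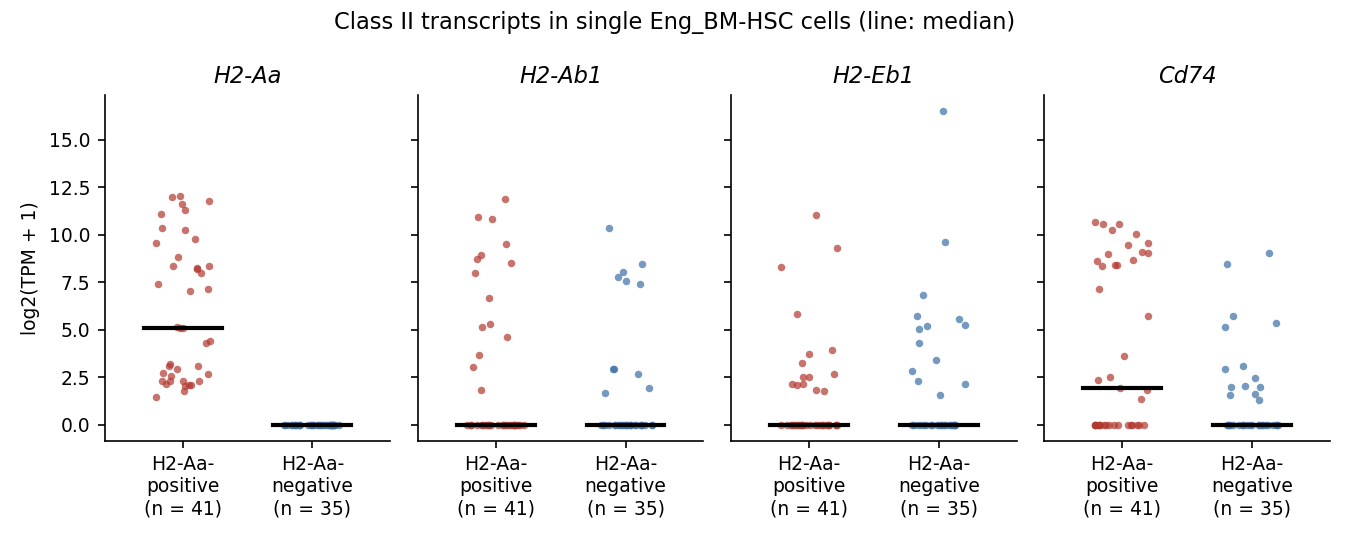
Levels of H2-Aa, H2-Ab1, H2-Eb1 and Cd74 as log2(TPM + 1), 1 point per cell, with H2-Aa-positive cells (n = 41) left of H2-Aa-negative cells (n = 35) and the median as a black line. H2-Aa divides the groups by construction. The upper quartile of Cd74 is 407 TPM in positive and 3.07 TPM in negative cells, while H2-Ab1 and H2-Eb1 have a median of 0 in both groups.

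Ciita, the coactivator of class II transcription, reached 1 TPM in 1 of 41 positive cells, at 87.7 TPM, and in 0 of 35 negative cells, which allows a share of up to 8.57%. At this detection rate a difference could not be seen. The 8 tested genes of the list of regulators held 0 members higher and 0 lower by 1 or more, with a median of -0.19. Among them Rfxank, a subunit of RFX, was detected in 22 positive and 18 negative cells with a difference of -0.16. Nfyc, a subunit of NF-Y, had the highest value of this list at 0.58, and Irf4 was listed at 0 in every cell.

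Of the genes of class II peptide processing and costimulation, 6 were tested, 0 were higher and 1 was lower, with a median of -0.31. The lower gene was Ctsd, the lysosomal protease cathepsin D, by 1.22 log2 units, with detection in 8 positive and 13 negative cells. Ctss, the protease that trims the invariant chain in antigen-presenting cells, was detected in 4 positive and 6 negative cells. The costimulatory ligand gene Cd80 and the activation marker Cd83 were listed at 0 in every cell.

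In single cells the class II transcripts were seen in varied combinations, and 16 of 41 positive and 11 of 35 negative cells had at least 2 of H2-Ab1, H2-Eb1 and Cd74. Of these genes a positive cell had 0 detected in 10 cases, 1 in 15, 2 in 10 and all 3 in 6. A negative cell had 0 detected in 11 cases, 1 in 13, 2 in 7 and all 3 in 4. These counts depend on the limit of 1 TPM. At 10 TPM a positive cell had 0 in 17 cases, 1 in 15, 2 in 5 and all 3 in 4. A negative cell had 0 in 20 cases, 1 in 11, 2 in 3 and all 3 in 1. Over the 41 positive cells the level of H2-Aa and that of Cd74 correlated with a Pearson r of 0.58 and a Spearman rho of 0.48 on the log2 scale, and H2-Aa and H2-Ab1 with an r of 0.38 and a rho of 0.32. For H2-Eb1 the r was 0.04 and the rho 0.11. These are descriptions over cells of 1 library identifier, which also share the variation in gene number.

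Divided at the gap, the high positive cells had more Cd74, with a mean log2(TPM + 1) of 6.98 against 1.58 in the low ones. This division into H2-Aa below 1 TPM, 1 to 100 TPM and 100 TPM or more was chosen after seeing the data. Against cells below 1 TPM, 2.73% of genes were higher and 5.61% lower by 1 or more in cells at 1 to 100 TPM, and 5.69% were higher and 5.31% lower in cells at 100 TPM or more. Median gene number was 2597 in cells below 1 TPM, 2387.5 in cells at 1 to 100 TPM and 2664 in cells at 100 TPM or more. Mitochondrial transcripts moved with the division: their mean share was 27.8% of TPM in cells at 1 to 100 TPM, with 5 of 22 cells over 50%, and 14.5% in cells at 100 TPM or more, with 0 of 19 over 50%. Of the cells below 1 TPM, 5 of 35 were over 50%. Differences below are again at equal gene number, and those without the cells over 50% were added after seeing the data.

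Cd74 was detected in 14 of 35 cells below 1 TPM, 6 of 22 cells at 1 to 100 TPM and 17 of 19 cells at 100 TPM or more. Those shares were 40% (exact Clopper-Pearson 95% interval 23.9 to 57.9), 27.3% (10.7 to 50.2) and 89.5% (66.9 to 98.7). Low cells lay at the level of negative cells, with a difference of 0.12, while high cells were higher by 5.21 log2 units. The Cd74 difference between H2-Aa-positive and H2-Aa-negative cells was thus larger in the high cells than in the low ones. Without the cells over 50% mitochondrial the differences were 0.47 for low and 5.21 for high cells.

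H2-Ab1 was detected in 11 cells below 1 TPM, 5 at 1 to 100 TPM and 10 at 100 TPM or more, with differences from the cells below 1 TPM of -0.59 for low and 2.41 for high cells. H2-Eb1 was detected in 14, 7 and 8 cells in the same order, with differences of -1.02 and -0.01. Every cell at 100 TPM or more had at least 1 of H2-Ab1, H2-Eb1 and Cd74, and all 3 were found in 5 of these 19 cells and in 1 of the 22 low cells. With 4 list members past 1 unit in high cells, 2 higher and 2 lower, the list median there was -0.08.

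**Figure D3:**
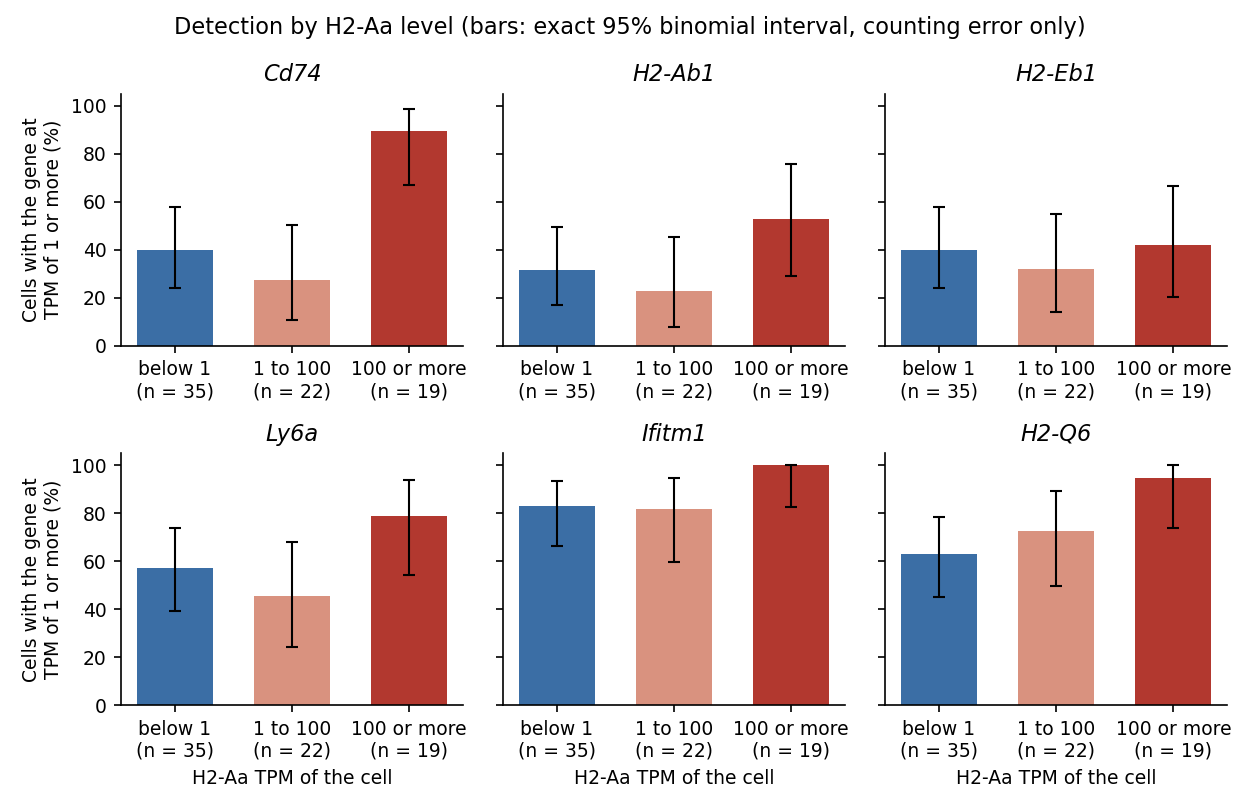
Share of cells with the named gene at a TPM of 1 or more, in percent, for cells with H2-Aa below 1 TPM (n = 35), at 1 to 100 TPM (n = 22) and at 100 TPM or more (n = 19), with exact 95% binomial intervals for counting error. Cd74 stands at 89.5% in the last group against 40% and 27.3% in the cells at lower levels, while H2-Eb1 stays between 31.8% and 42.1%. Ifitm1 reaches 100%.

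The MHC class I pathway presents peptides made in the cytosol, and its genes were abundant in both groups. B2m, the light chain of class I molecules, was detected in all 76 cells, with a median of 9234 TPM in positive and 6382 TPM in negative cells and a difference of 0.25. Of 18 tested genes 4 were higher by 1 or more, 0 were lower, and the median was 0.24. The heavy chain H2-K1 was detected in 40 positive and 35 negative cells and differed by -0.32.

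The 4 higher members were the heavy chains H2-Q6 and H2-Q7, the immunoproteasome subunit Psmb9 and the peptide-trimming enzyme Erap1. H2-Q6 ranged from 0 through a median of 73.7 to 1811 TPM in positive cells, against 0 through a median of 2.28 to 1332 TPM in negative cells, and was higher by 1.68. Its difference within the tertiles of gene number was 3.42, 2.54 and -0.10, so that it was absent among the cells with the most genes. H2-Q7 was higher by 1.40, Psmb9 by 1.25 and Erap1 by 1.04. H2-Q6 and H2-Q7 are near-identical copies, between which reads may be divided uncertainly.

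Erap1 followed the H2-Aa level as Cd74 did, with detection in 6 of 35 cells below 1 TPM, 2 of 22 at 1 to 100 TPM and 11 of 19 at 100 TPM or more. Its difference from cells below 1 TPM was -0.35 for low and 2.73 for high cells. For H2-Q6 the differences were 0.87 and 2.59, and without the cells over 50% mitochondrial -0.22 for low and 2.60 for high cells.

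Interferon-induced genes, many of which share inducers with MHC genes, showed no such difference as a list between positive and negative cells. Of 25 tested genes of the interferon response 0 were higher and 0 lower by 1 or more, and the median was 0.15. Irgm1, an immunity-related GTPase, had the highest value at 0.85. Isg15, a ubiquitin-like interferon product, was detected in 11 positive and 7 negative cells. The 7 tested genes of the interferon gamma pathway also had 0 past 1 unit in either direction, and its receptor chain Ifngr1 differed by -0.13. In cells at 100 TPM or more of H2-Aa, 3 interferon response genes were higher and 1 lower, beside 5.69% and 5.31% of all genes. At 1 to 100 TPM, 1 was higher and 0 were lower, beside 2.73% and 5.61%. The interferon response medians were 0.12 in high and 0.08 in low cells.

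Ifitm1, a membrane protein of the interferon-induced Ifitm family, was higher by more than 1 log2 unit. It ranged from 0 through a median of 829 to 35459 TPM in positive cells, against 0 through a median of 196 to 3604 TPM in negative cells. The groups overlap up to 3604 TPM, and some positive cells lay above it. The level of 35459 TPM was in 1 positive cell with 1014 genes and a mitochondrial share of 0.38%. The difference was 1.91 log2 units, and it was 0.69 for cells at 1 to 100 TPM of H2-Aa and 3.35 for cells at 100 TPM or more, all 19 of which had Ifitm1. Without the cells over 50% mitochondrial these differences were 1.58 and 3.18. Its paralogs Ifitm3 and Ifitm2 differed by 0.70 and 0.18 between positive and negative cells. In high cells both also passed 1 unit, Ifitm3 at 1.65 and Ifitm2 at 1.03, while in low cells they stood at -0.09 and -0.52. The median of the tested Ifitm genes was 1.65 in high and -0.09 in low cells. Without the cells over 50% mitochondrial it was 1.12 in high and 0.67 in low cells, so the contrast in sign was not kept. Ifitm6 was listed at 0 in every cell.

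Among the 32 tested HSC identity genes 3 were higher, 1 was lower and the median was -0.06. Ly6a, which encodes the surface protein Sca-1 used to sort mouse HSC, ranged from 0 through a median of 31.7 to 5288 TPM in positive cells, against 0 through a median of 2.87 to 1742 TPM in negative cells. It was higher by 2.39, and by 3.48, 2.34 and 1.81 within the tertiles of gene number. It was detected at 1 TPM or more in 25 positive and 20 negative cells. At 10 TPM or more it was in 21 positive and 8 negative cells, so the groups were near each other in its presence at the lower limit only.

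Ly6a was detected in 20 cells below 1 TPM of H2-Aa, 10 at 1 to 100 TPM and 15 at 100 TPM or more, with differences of 1.01 for low and 4.05 for high cells. Ly6a and Cd74 were found together in 19 of 41 positive and 8 of 35 negative cells. Lmo2, a bridging factor of the HSC transcription complex, was higher by 1.32, with medians of 241 TPM in positive and 83.5 TPM in negative cells.

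Txnip, an inhibitor of thioredoxin, was lower by 1.44 in positive cells, but its differences within the tertiles were 1.19, -1.32 and -3.51, so the direction was not the same in all of them. Cd34, a sialomucin that marks progenitors, had a difference of -0.999, just inside the limit for counting. Hlf differed by -0.03 and Gata2, a transcription factor of HSC and progenitors, by -0.06.

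Early lymphoid genes lay lower by the list median, but not by their summed level. Of 11 tested, 4 were lower by 1 or more, 1 was higher, 9 were below 0 and the median was -0.56. The summed TPM of the list had a median of 241 in positive and 191 in negative cells. Both groups had a median of 4 list genes detected per cell. Cd52, a surface glycoprotein of lymphocytes, was detected in 2 of 41 positive and 10 of 35 negative cells and was lower by 1.70, with a difference of 0 in the tertile with the fewest genes. Dntt, the terminal transferase of antigen receptor recombination, was detected in 5 positive and 11 negative cells and was lower by 1.58. Its differences within the tertiles were -0.28, -0.93 and -3.24, the last in the cells with the most genes.

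Bcl11a, a transcription factor needed for lymphoid development, was lower by 1.36, with detection in 20 positive and 25 negative cells. Flt3, the receptor of multipotent progenitors, was lower by 1.02, with medians of 3.23 TPM in positive and 10.05 TPM in negative cells, but its difference was 0.73 in the middle tertile of gene number. The higher gene was Il2rg, the common cytokine receptor gamma chain, by 1.27 and in the same direction in every tertile. Rag1, the recombinase gene, was listed at 0 in every cell.

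Cell cycle genes were low in both groups. Over G2 and M phase 18 genes were tested, with 0 higher and 0 lower by 1 or more, but all 18 lay below 0, with a median of -0.50. All 18 were below 0 in the tertile with the most genes, but none was below 0 in every tertile. Both groups had a median of 2 list genes detected per cell. Mki67, a proliferation marker, was detected in 4 positive and 7 negative cells and differed by -0.89. Its differences within the tertiles were -0.33, 0.08 and -1.93. The most G2 and M phase genes in 1 cell were 7 of 20 among positive cells, while 5 negative cells had between 9 and 16. All 5 had at least 2830 genes, and the list median was -0.39 without 1 of the 2 cells that had 16, left out after seeing the data.

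S phase genes had a median of -0.34 over 20 tested, with 0 lower and 1 higher by 1 or more. That gene was Pcna, the sliding clamp of DNA replication, by 1.30, with detection in 16 positive and 8 negative cells. By H2-Aa level the list median was -0.73 in cells at 1 to 100 TPM, with 6 of 20 genes lower and 0 higher, beside 5.61% and 2.73% of all genes. In cells at 100 TPM or more it was 0.16, with 0 lower and 3 higher, beside 5.31% and 5.69%. Without the cells over 50% mitochondrial the list median was -0.78 in low and 0.0045 in high cells, so no clear direction was left in the high cells. Among 9 tested CDK inhibitors and p53 targets 1 was higher, Cdkn2c, by 1.02, and 0 were lower, with a median of -0.21. Cdkn2c, an inhibitor of CDK4 and CDK6, differed by -0.86 in the middle tertile of gene number.

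**Figure D4:**
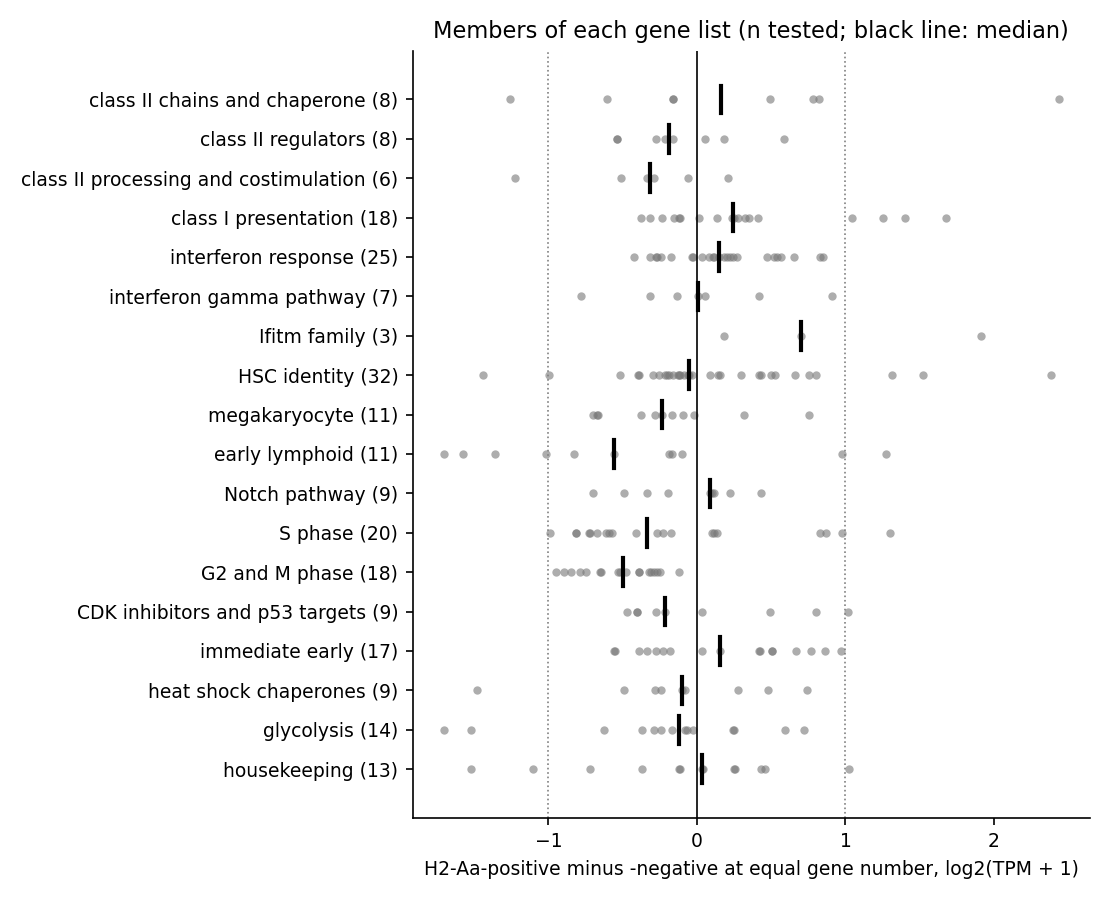
Differences at equal gene number between H2-Aa-positive and H2-Aa-negative cells in log2(TPM + 1), 1 grey point per tested gene of each list, with the list median as a black line and dotted lines at 1 log2 unit in either direction. The early lymphoid list (median -0.56) and the G2 and M phase list (median -0.50) lie to the left of 0, and the Ifitm family (median 0.70) to the right. The highest single points are Cd74 and Ly6a.

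Markers of cells that carry class II as a matter of course were compared between the groups. Of 11 B cell markers 8 were listed at 0 in every kept cell, among them Cd79a, Ms4a1 and Pax5, which define B cells. The other 3 were detected in both groups: Ebf1, a B lineage transcription factor, in 28 positive and 21 negative cells, Cd79b, a B cell receptor subunit, in 10 positive and 7 negative cells, and Cd22, a B cell lectin, in 12 positive and 9 negative cells, with differences of -0.19, 0.07 and 0.20. The sum of the list ranged from 0 through a median of 3.14 to 1751 TPM in positive cells and from 0 through a median of 4.58 to 4388 TPM in negative cells. The dendritic cell markers Itgax, Cd209a, Ccr7 and Batf3 were listed at 0 in every cell, and the sum of that list of 11 genes ranged from 0 through 9.17 to 772 TPM in positive and from 0 through 14.9 to 1517 TPM in negative cells. Flt3, which early lymphoid progenitors share, was the 1 of its 4 tested members past 1 unit.

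Of 12 monocyte and macrophage markers 5 were listed at 0 in every cell, including the macrophage genes Adgre1, Mpeg1 and Fcgr1. The sum of this list ranged from 0 through a median of 26.3 to 4800 TPM in positive cells and from 0 through 4.42 to 430 TPM in negative cells. Of its 4 tested members 1 was higher, Lyz2, the lysozyme of myeloid cells, by 1.38, with detection in 26 positive and 17 negative cells. Csf1r, the receptor of monocytes, reached 1 TPM in 0 of 41 positive cells and in 1 negative cell. The part of Lyz2-bearing cells in the other differences was not tested.

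The remaining marker lists had no member past 1 unit. Granulocyte markers (8 of 12 tested) had a median of 0.06, T and NK cell markers (4 of 11) 0.06 and erythroid markers (5 of 10) -0.08. The mast cell and basophil list and the endothelial and stromal list had 1 tested gene each, with differences of 0.41 and -0.43. Mpo, a granule enzyme of myeloid progenitors, was detected in 3 positive and 9 negative cells and differed by -0.77. Csf3r, the G-CSF receptor, was detected in 27 positive and 22 negative cells, and Nkg7, a granule protein of cytotoxic cells, in 23 positive and 19 negative cells. Cd3d, a T cell receptor subunit, was detected in 17 positive and 9 negative cells, with a highest level of 3632 TPM in positive and 17.4 TPM in negative cells and a difference of 0.67. The granulocyte genes Elane and Lcn2, the T cell genes Cd3e and Cd3g and the erythroid gene Klf1 were listed at 0 in every cell.

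Over all genes, the largest differences in either direction included 1 class II gene, Cd74. A gene was named when, in the higher group, its mean TPM was at least 10 and it was detected in at least 50% of cells, with 1 direction in all 3 tertiles of gene number. Of the 9602 genes tested, those above 0 that met this numbered 201 and those below 0 numbered 87, and the 10 largest of each are given. These counts do not use the limit of 1 log2 unit, at which 158 genes were higher and 323 lower. The naming filters ask for detection in the higher group only, so the counts do not measure direction. The named genes are the ends of a ranking of many genes over 76 cells, with no replicate behind them.

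The highest was Cstb, cystatin B, an inhibitor of cysteine cathepsins, at 2.61 log2 units. It ranged from 0 through a median of 27.9 to 1872 TPM in positive cells, against 0 through a median of 0 to 1169 TPM in negative cells. It was detected in 24 of 41 positive and 8 of 35 negative cells. Unlike Cd74, it stood higher in the low cells than in the high ones, with differences of 3.67 at 1 to 100 TPM of H2-Aa and 1.43 at 100 TPM or more.

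After Cd74 and Ly6a came Ogt, the enzyme that adds O-linked N-acetylglucosamine to proteins, at 2.28, with detection in 26 positive and 9 negative cells. Prdx5, a peroxiredoxin, was higher by 2.25 with detection in 25 positive and 11 negative cells. Ocrl, an inositol polyphosphate phosphatase of endosomal traffic, was higher by 2.05 with detection in 30 positive and 16 negative cells.

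Chchd7, a small mitochondrial protein, was higher by 1.99, Gabarap, an ATG8 protein of autophagosomes, by 1.98, and Maea, a subunit of the CTLH ubiquitin ligase, by 1.94. Pim1, a serine/threonine kinase induced by cytokine signals, was higher by 1.92. Unlike the others it was detected in nearly all cells, 40 of 41 positive and 31 of 35 negative, with medians of 194 TPM in positive and 61.8 TPM in negative cells.

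Among the genes lower in positive cells Sfr1, a partner in recombination repair, had the largest difference, at -2.46. It was detected in 8 of 41 positive and 21 of 35 negative cells, with a highest level of 327 TPM in positive and 1176 TPM in negative cells. Ppib, cyclophilin B of the endoplasmic reticulum, was lower by 2.26, with medians of 3.85 TPM in positive and 128 TPM in negative cells. It is the named gene whose direction turned with the measure: the log2 ratio of mean TPM was 0.12, since the highest Ppib level, 4552 TPM, was in a positive cell.

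Capzb, which caps actin filaments, was lower by 2.21, the kinase Csnk1a1 by 2.16, the proteasome subunit Psmb4 by 1.98 and Vdac2, a channel of the mitochondrial outer membrane, by 1.98. Polr2h, a subunit shared by the RNA polymerases, was lower by 1.88, Paics, an enzyme of purine synthesis, by 1.87, Atp5b, the beta subunit of ATP synthase, by 1.83, and Cnpy2, a protein of the endoplasmic reticulum, by 1.71. Among these 8 genes detection in positive cells ran from 11 of 41 (Psmb4 and Polr2h) to 23 (Paics), and in negative cells from 18 of 35 (Polr2h) to 27 (Paics). The ranges of positive and negative cells overlapped for every one of the 20 genes.

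**Figure D5:**
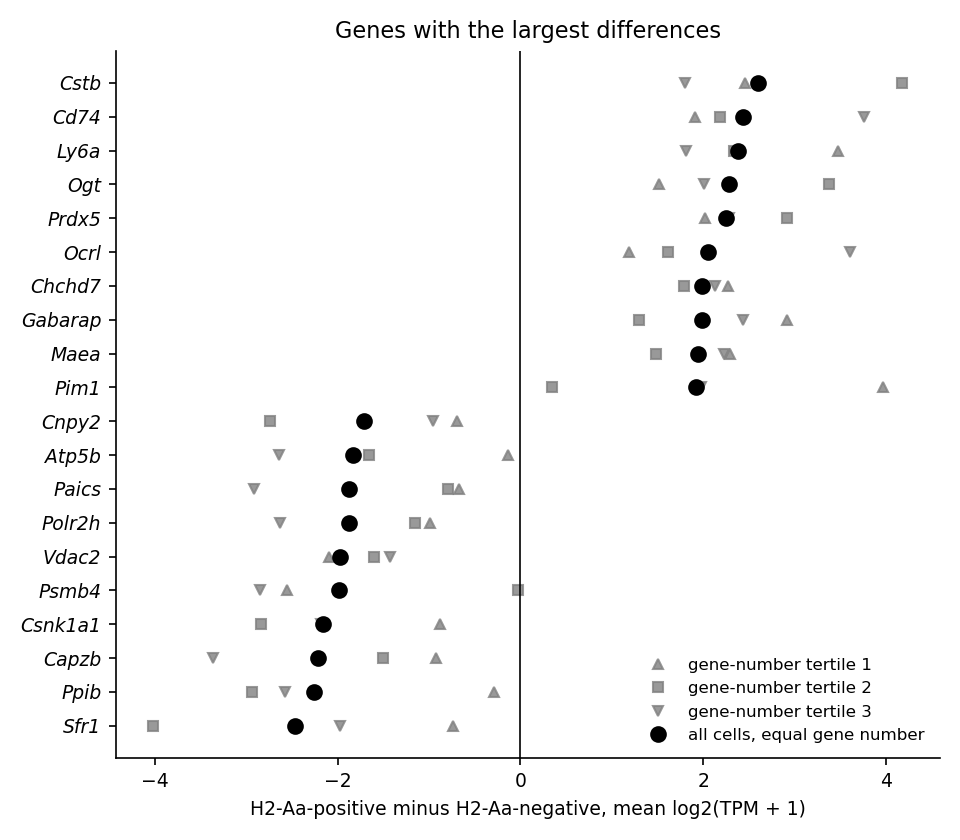
The 10 genes with the largest differences in each direction. Black circles give the positive minus negative difference at equal gene number over all kept cells and grey symbols the difference of means within each tertile of gene number, all in mean log2(TPM + 1). The naming rule required 1 direction in all tertiles, and within it the tertiles ranged widely, for Pim1 from 0.34 to 3.97.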

How the data were processed

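The data were 1 table of 21970 mouse genes, 92 ERCC spike-ins and 11 cassettes in 316 cells, with 0 columns left unmapped. The submitters' processing notes name HISAT 0.1.6, Salmon 0.3.2 and GRCm38 but not their roles. The authors deposited natural log values. Their base was read from the data, since exp(x) - 1 gave totals of 502745 to 950974 TPM in the kept cells. TPM keeps no sequencing depth, so the depth per cell is unknown and limits on reads cannot be given.

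From TPM, log2(TPM + 1) was computed, with a pseudocount of 1 that understates differences of low genes. Differences are the group term of a least-squares fit with log2 gene number, in Python 3.11.15 with numpy 2.4.6, pandas 2.3.3 and scipy 1.17.1. The fit was run on exact made-up values and on the kept cells with some genes scaled up or down. That checks the arithmetic only. Cells were divided into 3 tertiles of gene number. Doublets were not called, since no molecule counts were used here. Detection means a TPM of 1 or more. A share of 0 is given with the limit that 3 cells would set. Members, lists and the gap at 100 TPM were chosen with earlier results of these data known.

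Named genes were all measured class II list members, the 10 largest differences in each direction (mean TPM of 10 or more and detection in 50% or more of the higher group, 1 direction in all tertiles, leaving out predicted, small RNA, ribosomal protein and mitochondrial genes) and members of the other lists. Xist, H19 and Ighm were not analysed here, and some counted list members are not reported by name. The alternatives changed the gene number adjustment, the pseudocount, the filters, the H2-Aa threshold, the scaling and the cells included.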

Additional observations from a re-analysis of the deposited data

Results flagged for a closer look

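Of the 19 Eng_BM-HSC cells left out for having fewer than 1000 genes, 6 had H2-Aa at a TPM of 1 or more, a share of 31.6% (exact Clopper-Pearson 95% interval 12.6 to 56.6), with a highest level of 1232 TPM. They stand out as H2-Aa signal in cells that no comparison used. Among the kept cells the share was 53.9% (42.1 to 65.5). The intervals overlap.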

How the results depend on the processing

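Gene counts and the class II median moved with the processing. The 158 higher genes became 275 within tertiles of gene number, 238 with cells matched on gene number, 366 with a positive threshold of 10 TPM, 417 with at least 2000 genes per cell and 267 after rescaling without mitochondrial and ribosomal protein genes. The 323 lower genes became 189 with at least 500 genes per cell, 486 with at least 2000 and 496 after rescaling. Higher and lower counts were 527 and 923 with a pseudocount of 0.1, 24 and 43 with 10, and 3120 and 2551 for log2 of mean TPM. They were 546 and 510 for H2-Aa at 100 TPM or more, and 262 and 539 for 1 to 100 TPM, and without cells over 50% mitochondrial 470 and 627, and 443 and 696, all chosen after seeing the data. Without adjustment for gene number they were 235 and 256, so the higher genes made up 47.9% of the called genes in place of 32.8%. The median of the class II list, 0.17, was 0.31 unadjusted, 0.35 within tertiles, 1.38 for log2 of mean TPM, -0.024 with no filter on low values, -0.16 at a mean TPM of 10, -0.017 for positives at 10 TPM, 0.31 for positives above 0, -0.082 for 100 TPM or more (-0.23 without cells over 50% mitochondrial) and -0.028 for 1 to 100 TPM. Ppib turned to 0.12 for log2 of mean TPM, and H2-Q6 to -0.22 for 1 to 100 TPM without cells over 50% mitochondrial. Of 47 class II, named and other listed genes, between 41 and 47 kept their direction in the alternatives that left 47 to fit. The named genes among them were chosen for large differences with 1 direction in all tertiles. Their direction within tertiles was thus fixed by that choice, and the other alternatives reuse most of the same cells, so this count is no check on them. The cause of the moves was not tested. The gene number difference of -29 ranged from -123 to 153.5. No paired analysis was possible because both groups are cells of 1 population with no shared replicate numbers. Unknown depth and the 76 cells limit all values.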

Other observations

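Other gene groups of these cells were looked at on the same scale, differences at equal gene number, H2-Aa-positive minus H2-Aa-negative. Of 9 tested Notch pathway genes 0 were higher and 0 lower by 1 or more, with a median of 0.09, and the target genes Hes5, Hey1 and Dtx1 were listed at 0 in every kept cell. Of 17 immediate early genes, which rise quickly after stimulation, 0 lay past 1 unit, with a median of 0.16. In cells at 100 TPM or more of H2-Aa 4 of them were higher and 0 lower, beside 5.69% and 5.31% of all genes. In cells at 1 to 100 TPM 0 lay past 1 unit. Fos, a subunit of AP-1, was detected in 37 of 41 positive and 30 of 35 negative cells, with medians of 168 TPM in positive and 36.3 TPM in negative cells and a difference of 0.67. Of 11 tested megakaryocyte genes 0 lay past 1 unit, with a median of -0.23. In cells at 100 TPM or more of H2-Aa 0 of these were higher and 3 lower, and in cells at 1 to 100 TPM 1 was higher and 0 were lower.

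Of 9 tested heat shock chaperones 1 was lower and 0 were higher, with a median of -0.10. The lower gene was Hsp90aa1, the inducible HSP90 chaperone, by 1.48, with medians of 45.4 TPM in positive and 289 TPM in negative cells. Its differences within the tertiles of gene number, from fewest to most genes, were 1.40, -2.54 and -1.92, so the direction turned in the first. Of 14 tested genes of glycolysis 2 were lower, Gpi1 by 1.71 and Pgk1 by 1.52, 0 were higher and the median was -0.12. Gpi1, glucose phosphate isomerase, was detected in 19 of 41 positive and 23 of 35 negative cells, with tertile differences of 0.63, -3.16 and -1.82. Pgk1, phosphoglycerate kinase, was detected in 4 positive and 10 negative cells and was lower in the top tertile alone, with tertile differences of 0.002, 0.23 and -4.13. Of 13 housekeeping genes 1 was higher and 2 were lower, with a median of 0.04 (Sdha at 1.02, Tbp at -1.10 and Pgk1 again). Sdha had tertile differences of 2.37, -0.79 and 1.39 and Tbp of 1.27, -1.39 and -2.68, so neither kept 1 direction. Against cells with H2-Aa below 1 TPM, the housekeeping median was -0.47 in cells at 1 to 100 TPM and 0.47 in cells at 100 TPM or more, and -0.14 and 0.11 without the cells over 50% mitochondrial. The 11 reporter and selection cassettes in the table were detected in 0 of 76 kept cells, which allows a share of up to 3.95% for each.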
